A study of Rattus norvegicus with 20 samples.

Results

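The genes Nes, Vim and Sox2 were followed through all 20 libraries of the study as 3 of the 32623 gene IDs in its count table: ENSRNOG00000018681 (Nes), ENSRNOG00000018087 (Vim) and ENSRNOG00000012199 (Sox2). They were picked by ID as genes in common use as markers of neural stem cells, and the symbols came with that choice. The count table lists IDs alone. Since the reference gene table used here lacks Ensembl identifiers, the symbols were matched for 0 IDs and the pairing was not checked. For the same reason the stem cell label could not be set against markers of neurons, astrocytes, oligodendrocytes or other cells.

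The cells were hippocampal neural stem cells of adult rats, grown with FGF-2 (20 ng/mL) and tested in a basal medium with 0.5% serum. The rats were of the inbred strain Fisher 344. Wild-type cells were sequenced without an inducer at 0, 3 and 5 d. All other libraries came from optoWnt cells, which carry a light-responsive construct for switching on canonical Wnt signalling, brought in by transduction at a multiplicity of infection of 0.5 and puromycin selection. Effects of the inducers were therefore measured in optoWnt cells alone, while the unstimulated groups hold both genotypes. These optoWnt cells received no inducer (0, 3 and 5 d), CHIR99021 (given as 3 mM in the labels), Wnt3a (100 ng/mL) or light. The inducer was kept ON for 1, 3 or 5 d, or for 1 d followed by 1 d or 2 d OFF. Light at 5 d ON was not analysed here. The titles of the unstimulated 3 d and 5 d libraries also carry the word ON, and no source used here says if those cells saw light. Each combination of genotype, inducer and profile is 1 library, and the labels do not say which libraries came from separate cultures. A p-value here thus rests on the spread left among these libraries by a fit with separate terms, such as profile, genotype and inducer. That spread holds any joint effects of these terms, and also differences between libraries that may be technical. These cannot be told apart.

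Nes encodes nestin, a large intermediate filament protein of neural stem and progenitor cells. Vim encodes vimentin, the intermediate filament protein with which nestin forms mixed filaments, and it is also made by astrocytes and many other cells. Sox2 encodes an HMG-box transcription factor that maintains neural stem cells and stays on in many astrocytes. In canonical Wnt signalling, the kinase GSK-3 marks β-catenin for destruction. A Wnt ligand bound to Frizzled and LRP6, or inhibition of GSK-3 by CHIR99021, lets β-catenin enter the nucleus and act with TCF/LEF factors.

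The 250 bases upstream of each gene's RefSeq start are shown because TCF/LEF factors act at such DNA and the inducers all feed into them. The windows are on the plus strand of the RefSeq assembly GRCr8, while the reads were counted on the build Rnor_6.0. They are chr2:175736338-175736587 for Nes, chr17:81577011-81577260 for Vim and chr2:119464881-119465130 for Sox2. Capitals mark matches, on either strand, to 3 motifs: the TCF/LEF core (CTTTGA or CTTTGT), the CCAAT box (CCAAT) and the TATA box (TATAAA).
Nes: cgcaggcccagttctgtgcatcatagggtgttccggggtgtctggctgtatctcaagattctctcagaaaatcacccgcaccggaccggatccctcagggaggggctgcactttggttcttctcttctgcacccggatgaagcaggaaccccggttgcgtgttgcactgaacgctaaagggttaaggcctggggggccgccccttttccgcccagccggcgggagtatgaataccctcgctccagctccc
Vim: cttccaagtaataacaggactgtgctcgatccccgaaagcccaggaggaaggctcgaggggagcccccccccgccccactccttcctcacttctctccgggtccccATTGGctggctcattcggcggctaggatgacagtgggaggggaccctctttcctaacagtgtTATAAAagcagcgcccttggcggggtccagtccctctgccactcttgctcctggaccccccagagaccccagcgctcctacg
Sox2: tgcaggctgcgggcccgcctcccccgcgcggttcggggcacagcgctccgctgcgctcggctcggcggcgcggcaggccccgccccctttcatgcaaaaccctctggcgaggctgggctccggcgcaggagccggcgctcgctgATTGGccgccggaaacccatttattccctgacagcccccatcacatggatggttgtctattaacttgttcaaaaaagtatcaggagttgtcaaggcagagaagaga

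The letters of the TCF/LEF core were in 0 of the 3 windows and in 27.5% of 33469 windows of the same length. The CCAAT box was found once each in the Vim and Sox2 windows (34% of all windows hold it), and the TATA box once, in the Vim window (12.9% of all). The windows of Nes, Vim and Sox2 had 60.4%, 62.4% and 64.4% G or C. No match overlapped another. A match is a description of letters, and its absence says only that these letters are not in this window.

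Levels are given as CPM, counts scaled to a library total of 1e+06. Because reads mark 3' ends, a level does not depend on transcript length, but it is compared here between libraries and not between genes. Totals ran from 696463 to 5935681 reads. The 3 genes were well covered. Averaged over its upper and lower sides, the 95% Wilson interval of a CPM value reached at most 30.2% for Nes (Wnt3a at 1 d ON, 43 reads, the shallowest library). It reached 19.2% or less in the other 19 libraries. For Vim and Sox2 this average was at most 11.5% and 8.69%. These intervals cover counting error only. A set of 6 libraries stood apart from the other 14 on the first principal component of all genes, for a cause not tested here: wild-type 0 d and 5 d, Wnt3a 5 d ON, light 3 d ON, and CHIR99021 and Wnt3a at 1 d ON 2 d OFF.

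Nes varied most and Sox2 least of the 3. Over the 20 libraries Nes ran from 24.4 to 1093 CPM with a median of 156, a 44.8-fold range. Vim ran from 291 to 2953 CPM with a median of 1118, a 10.2-fold range. Sox2 ran from 396 to 1070 CPM (median 728), a 2.7-fold range. Of the 2296 genes whose mean reached 100 CPM, 1.48% had a larger SD of log2 CPM over the libraries than Nes (1.58), 7.71% a larger one than Vim (1.07) and 73.5% a larger one than Sox2 (0.4). The median SD of these genes was 0.54.

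**Figure D1:**
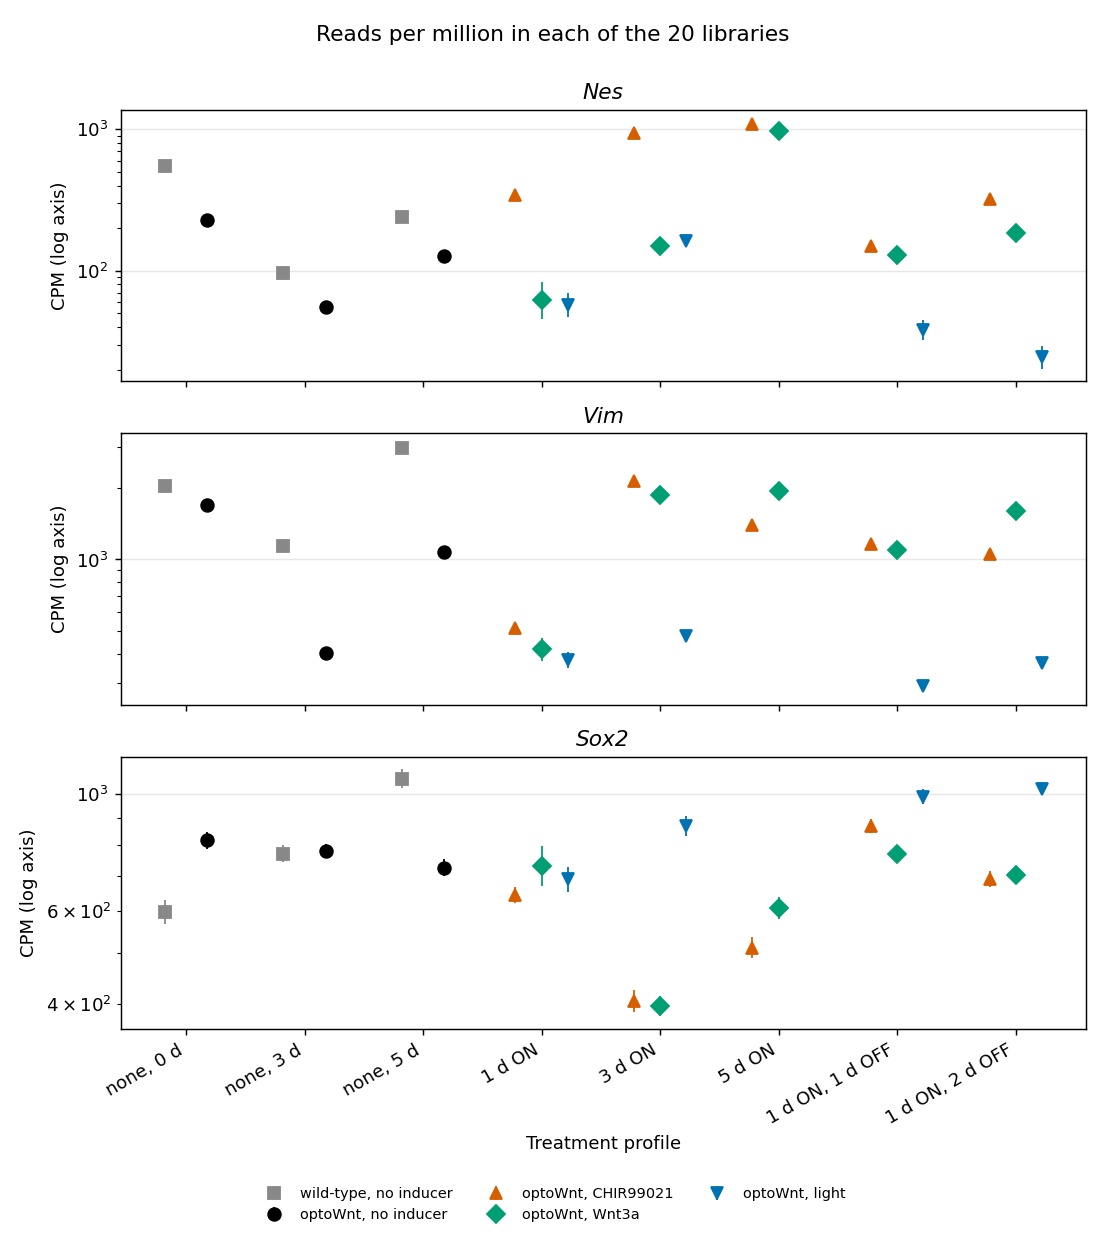
CPM of Nes, Vim and Sox2 on log axes in each of the 20 libraries, by treatment profile on the horizontal axis. Each point is 1 library, coloured and shaped by genotype and inducer, with its 95% counting interval. Nes is highest at 5 d ON (971 and 1093 CPM) and lowest under light at 1 d ON 2 d OFF (24.4 CPM), while Sox2 stays between 396 and 1070 CPM throughout.

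Without an inducer, Nes and Vim were lower at 3 d than at 0 d in both genotypes. Sox2 was higher at 3 d in wild-type cells and slightly lower in optoWnt cells, where the counting intervals overlap. Nes stood at 551 (wild-type) and 228 CPM (optoWnt) at 0 d, at 95.7 and 55.1 CPM at 3 d, and at 240.5 and 127 CPM at 5 d. The 2 libraries of 3 d lay below both of 0 d, and 5 d lay between in each genotype. Vim stood at 2036 and 1705 CPM at 0 d, at 1135 and 401 CPM at 3 d and at 2953 and 1075 CPM at 5 d, in the same order of genotypes. The wild-type cells of 5 d had the highest Vim level of all 20 libraries. In bulk libraries such as these, fewer cells of a type and less RNA per cell cannot be told apart.

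None of these changes with time was called, that is, had an adjusted p under 0.05 in edgeR's quasi-likelihood test over all genes. At 3 d against 0 d, where 2.07% of the 12190 genes tested were called, the log2 fold change was -2.41 for Nes (SE 0.65, edgeR adjusted p = 0.074), -1.62 for Vim (SE 0.48, edgeR adjusted p = 0.11) and 0.02 for Sox2 (SE 0.35, edgeR adjusted p = 0.98). DESeq2 called Nes and Vim here (DESeq2 adjusted p of 0.0051 and 0.014). Both 3 d libraries lay below both 0 d libraries for Nes and Vim, as they did for 21.5% of genes. At 5 d against 0 d, where 4.52% were called, the log2 fold changes were -1.1 for Nes (95% interval -2.42 to 0.22), -0.16 for Vim (-1.15 to 0.84) and 0.28 for Sox2 (-0.48 to 1.04).

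Sox2 ran from 598 to 1070 CPM without an inducer. It stood at 598 (wild-type) and 818 CPM (optoWnt) at 0 d, at 772 and 782 CPM at 3 d and at 1070 and 725 CPM at 5 d. The groups of 0, 3 and 5 d overlap. Of the genotypes, optoWnt was the higher at 0 d and wild-type the higher at 5 d, and at 3 d their counting intervals overlap.

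The CPM of Nes and Vim was higher in wild-type than in optoWnt cells on each of the 3 days. Each day has 1 library per genotype, and the share of all genes with this order was not counted. The ratio of wild-type to optoWnt was 2.41, 1.74 and 1.89 for Nes at 0, 3 and 5 d, and 1.19, 2.83 and 2.75 for Vim. For Sox2 it was 0.73, 0.987 and 1.48. With optoWnt against wild-type as a term of the fit, the log2 fold change was -1.08 for Nes (SE 0.51, edgeR adjusted p = 0.64), -1.16 for Vim (SE 0.39, edgeR adjusted p = 0.64) and -0.11 for Sox2 (SE 0.29, edgeR adjusted p = 0.93). In this comparison 0% of genes were called by edgeR (956 had an unadjusted p under 0.05, and DESeq2 called 22). Of the 3 wild-type libraries, those of 0 d and 5 d belong to the 6 that stood apart. Without the 6, the log2 fold changes were -0.69 for Nes, -1.39 for Vim and 0.13 for Sox2, and none was called. Without wild-type 0 d alone, they were -1.48 for Vim and -0.28 for Sox2, and without wild-type 5 d alone -0.91 and 0.2.

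Under an inducer kept ON, Nes was higher than in unstimulated cells of the same day in every library, and CHIR99021 gave the largest values at each day. At 3 d, Nes stood at 940.4 CPM with CHIR99021, 149 CPM with Wnt3a and 164 CPM with light, against 95.7 (wild-type) and 55.1 CPM (optoWnt) unstimulated. At 5 d, it stood at 1093 CPM with CHIR99021 and 971 CPM with Wnt3a, against 240.5 and 127 CPM. The groups therefore did not overlap at either day, a pattern shared by 3.12% of genes. The Wnt3a values lay far apart: the 5 d library was 2.71 log2 units above the 3 d library, and it is among the 6 that stood apart.

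Averaged over 3 d and 5 d and over inducers, Nes was 663 ± 467 CPM (SD, n = 5) under constant stimulus and 130 ± 79.6 CPM (SD, n = 4) without it. The fitted log2 fold change was 2.62 (SE 0.53, edgeR adjusted p = 0.062), which was not called, in a comparison in which 0.197% of genes were. DESeq2 called it (DESeq2 adjusted p = 6.1e-05), as did edgeR on all genes with a read (edgeR adjusted p = 0.00067). In edgeR fits that each left out 1 library, it was called without CHIR99021 5 d ON (adjusted p = 0.048), Wnt3a 3 d ON (0.023) or light at 1 d ON 2 d OFF (0.03). Light at 5 d ON is filled in by the additive model.

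By inducer, the Nes rise under constant CHIR99021 passed the test. Nes stood at 1020 ± 108 CPM with CHIR99021 (SD, n = 2) and at 130 ± 79.6 CPM in the 4 unstimulated libraries of 3 d and 5 d. These ranges did not overlap, but neither did those of Sox2, which was not called. The share of all genes without overlap here was not counted. The fit had terms for day, genotype and inducer, so its log2 fold change is not the plain ratio of the mean levels. The log2 fold change was 3.73 (SE 0.67, edgeR adjusted p = 0.029), in a comparison in which 1.74% of 11566 genes were called (201, and 0 without CHIR99021 3 d ON). The Nes call was lost without CHIR99021 3 d ON (log2 fold change 2.81, edgeR adjusted p = 0.3), without wild-type 5 d (3.69, 0.073) and without all wild-type libraries (3.69, 0.074). Constant Wnt3a gave 2.39 (SE 0.64, edgeR adjusted p = 0.88, with 0.00865% of genes called), and was called by DESeq2 (DESeq2 adjusted p = 0.041) and by edgeR on all genes with a read (adjusted p = 0.015). Its libraries lay far apart, at 149 and 971 CPM, and its fold change was 1.17 to 3.16 over the fits without 1 library. Constant light, with a single library that is assumed to vary like the others, gave 1.66 (SE 0.74, edgeR adjusted p = 0.65). There edgeR called 0% of genes (800 had an unadjusted p under 0.05, and DESeq2 called 8).

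**Figure D2:**
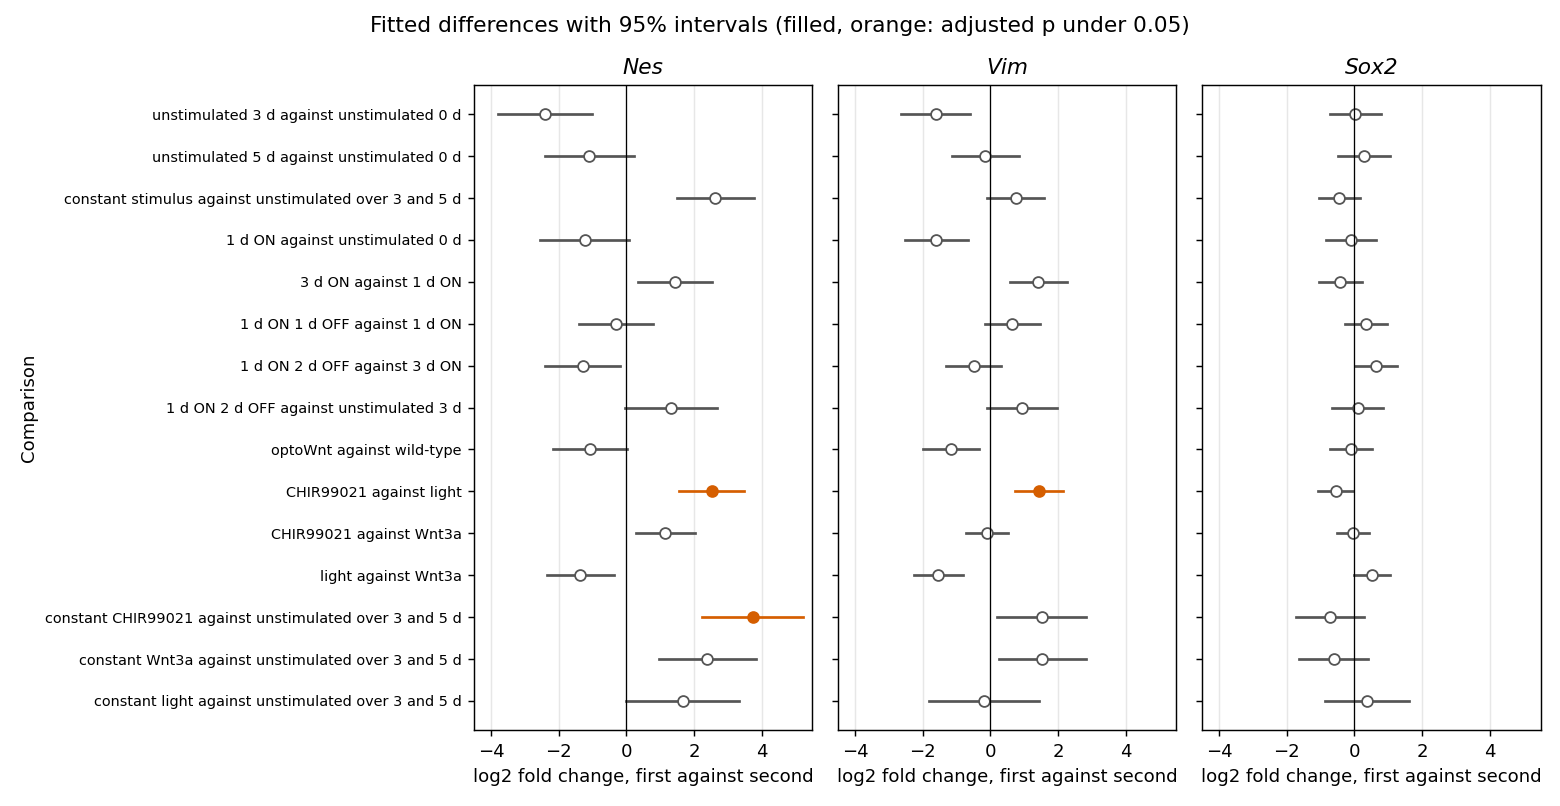
Fitted log2 fold changes of Nes, Vim and Sox2 (horizontal axis) with 95% intervals in the 15 comparisons listed on the vertical axis, the first group against the second. Filled orange points have an edgeR adjusted p under 0.05: Nes (2.52) and Vim (1.44) for CHIR99021 against light, and Nes (3.73) for constant CHIR99021 against no inducer.

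Vim under constant stimulus overlapped with unstimulated cells, with lower values under light than under the other inducers. At 3 d ON, Vim stood at 2142 CPM with CHIR99021 and 1880 CPM with Wnt3a, above both unstimulated libraries of 3 d, and at 476 CPM with light, close to unstimulated optoWnt cells (401 CPM). At 5 d ON it stood at 1405 CPM with CHIR99021 and 1948 CPM with Wnt3a, between the unstimulated optoWnt (1075 CPM) and wild-type (2953 CPM) levels. The log2 fold change over 3 d and 5 d was 0.75 (SE 0.39, edgeR adjusted p = 0.55). For constant CHIR99021, Wnt3a and light alone it was 1.51 (95% interval 0.2 to 2.82), 1.53 (0.24 to 2.82) and -0.19 (-1.83 to 1.45), with edgeR adjusted p of 0.3, 0.88 and 0.94. The difference between constant CHIR99021 and constant light, tested after the values were seen, was 1.7 for Vim (SE 0.75, edgeR adjusted p = 0.33) and 2.07 for Nes (SE 0.82, edgeR adjusted p = 0.3), and it was not called.

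Sox2 under constant CHIR99021 and Wnt3a lay below unstimulated cells, and with light above them. At 3 d ON it stood at 405 CPM with CHIR99021 and 396 CPM with Wnt3a, the lowest pair of the 20 libraries, and at 871.5 CPM with light, against 772 and 782 CPM unstimulated. At 5 d ON it stood at 511 and 608 CPM with CHIR99021 and Wnt3a, below both unstimulated libraries of 5 d (1070 and 725 CPM), an order shared by 15.9% of genes. The log2 fold change over 3 d and 5 d was -0.45 (95% interval -1.06 to 0.15, edgeR adjusted p = 0.62). For CHIR99021 and Wnt3a alone it was -0.73 (-1.74 to 0.28) and -0.61 (-1.63 to 0.4), and for light 0.37 (-0.87 to 1.62). None of these was called.

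On the first day of stimulus, Nes was higher with CHIR99021 than with Wnt3a or light, and Vim was low with all 3 inducers. At 1 d ON, Nes stood at 342 CPM with CHIR99021, 61.7 CPM with Wnt3a and 57.2 CPM with light, against 551 and 228 CPM at 0 d. Vim stood at 514, 416 and 376 CPM in the same order, below both 0 d libraries (2036 and 1705 CPM). How many of all genes lay this way was not counted. Sox2 stood at 644, 731 and 689 CPM and overlapped with 0 d. The cells of 1 d ON were also 1 d into the low-serum medium, and no unstimulated library of that day was analysed here, so stimulus and time cannot be told apart. Against 0 d, the log2 fold change was -1.23 for Nes (SE 0.62, edgeR adjusted p = 0.59), -1.6 for Vim (SE 0.44, edgeR adjusted p = 0.15) and -0.1 for Sox2 (SE 0.35, edgeR adjusted p = 0.98), where 0.574% of genes were called. The Vim difference was called by DESeq2 (DESeq2 adjusted p = 0.031), and by edgeR without light 1 d ON (log2 fold change -2.25, adjusted p = 0.038) or without the 6 libraries that stood apart (-2.01, adjusted p = 0.025).

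Nes was higher at 3 d than at 1 d ON with each inducer, and so was Vim, by a smaller margin with light. Each pair is 1 library against another, and how many of all genes share this order was not counted. The log2 differences were 1.46, 1.27 and 1.52 for Nes with CHIR99021, Wnt3a and light. For Vim they were 2.06, 2.17 and 0.34, and for Sox2 -0.67, -0.88 and 0.34. In the fit, 3 d against 1 d ON gave 1.44 for Nes (SE 0.51, edgeR adjusted p = 0.31), 1.42 for Vim (SE 0.39, edgeR adjusted p = 0.19) and -0.42 for Sox2 (SE 0.29, edgeR adjusted p = 0.66), where 0.0246% of genes were called. The Vim difference was called by DESeq2 (DESeq2 adjusted p = 0.014) and by edgeR without the 6 libraries that stood apart (log2 fold change 1.79, adjusted p = 0.043).

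The 3 inducers were then compared in the fit of all libraries, which uses their matched profiles. Nes was higher with CHIR99021 than with light at all 4 profiles that both have. CHIR99021 over light was 5.98 at 1 d ON, 5.75 at 3 d ON, 3.89 after 1 d OFF and 13.2 after 2 d OFF. Mean Nes levels were 439 ± 346 and 70.9 ± 63.2 CPM (SD, n = 4 each), with wide spread over profiles, and the log2 fold change was 2.52 (SE 0.45, edgeR adjusted p = 0.019). Of all genes tested here, 1.39% were called, 116 of the 170 higher with CHIR99021. Without CHIR99021 3 d ON, 6 genes were called. The same order at all 4 profiles was seen in 13.8% of genes.

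Vim was also higher with CHIR99021 than with light, by a smaller margin and with less certainty. Vim with CHIR99021 over light was 1.37, 4.5, 4 and 2.91 at the same 4 profiles, and the means were 1220 ± 678 and 377 ± 76.1 CPM (SD, n = 4 each). The light libraries ran from 291 to 476 CPM and the CHIR99021 libraries from 514 to 2142 CPM. The order at all 4 profiles was seen in 13.8% of genes, and the share with separate ranges was not counted. The log2 fold change was 1.44 (SE 0.33, edgeR adjusted p = 0.046). Leaving out the 6 libraries that stood apart ended this call (1.18, edgeR adjusted p = 0.16), and so did leaving out the wild-type libraries (1.45, 0.063). It was also lost on leaving out any 1 of 13 libraries, with an edgeR adjusted p from 0.05 to 0.19. These were CHIR99021 at 1 d ON, at 3 d ON and after 1 d and 2 d OFF, Wnt3a and light at 3 d ON and after 1 d and 2 d OFF, and the unstimulated libraries of wild-type 0 d, wild-type 5 d and optoWnt 5 d. The Nes call held without the 6 (2.62, edgeR adjusted p = 0.043), and was lost without CHIR99021 1 d ON (2.32, 0.068), CHIR99021 3 d ON (2.3, 0.11), light 3 d ON (2.77, 0.068) or light at 1 d ON 1 d OFF (2.57, 0.087).

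Sox2 was lower with CHIR99021 than with light at each matched profile, as were 10.4% of genes, with ratios of 0.935, 0.465, 0.88 and 0.675. The log2 fold change was -0.56 (SE 0.24, edgeR adjusted p = 0.27). Its 95% interval ran from -1.08 to -0.04, so a difference of up to about one log2 unit is within it.

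Between Wnt3a and light, Vim differed in the same direction at all 4 matched profiles, as did 8.88% of genes, with Wnt3a over light at 1.11, 3.95, 3.79 and 4.4. For Nes the ratios were 1.08, 0.91, 3.38 and 7.56, close to 1 while the inducer was ON and above 3 after it was withdrawn. Light against Wnt3a gave log2 fold changes of -1.54 for Vim (SE 0.34, edgeR adjusted p = 0.16), -1.36 for Nes (SE 0.46, edgeR adjusted p = 0.31) and 0.52 for Sox2 (SE 0.25, edgeR adjusted p = 0.46), where 0.0082% of genes were called. The Vim difference was called by DESeq2 (DESeq2 adjusted p = 0.0018) and with no low-count filter (edgeR adjusted p = 0.022).

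Between CHIR99021 and Wnt3a, Nes had higher values with CHIR99021, by a wide margin at 1 d and 3 d ON. CHIR99021 over Wnt3a for Nes was 5.54 at 1 d ON, 6.32 at 3 d ON, 1.13 at 5 d ON, 1.15 after 1 d OFF and 1.75 after 2 d OFF. The log2 fold change was 1.15 for Nes (95% interval 0.28 to 2.03, edgeR adjusted p = 0.47), -0.1 for Vim (-0.73 to 0.52, edgeR adjusted p = 0.94) and -0.04 for Sox2 (-0.52 to 0.44, edgeR adjusted p = 0.97), where 0.0328% of genes were called. These intervals hold differences in both directions for Vim and Sox2. The dose of light has no common scale with the other inducers, and these are comparisons of the conditions as applied.

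**Figure D3:**
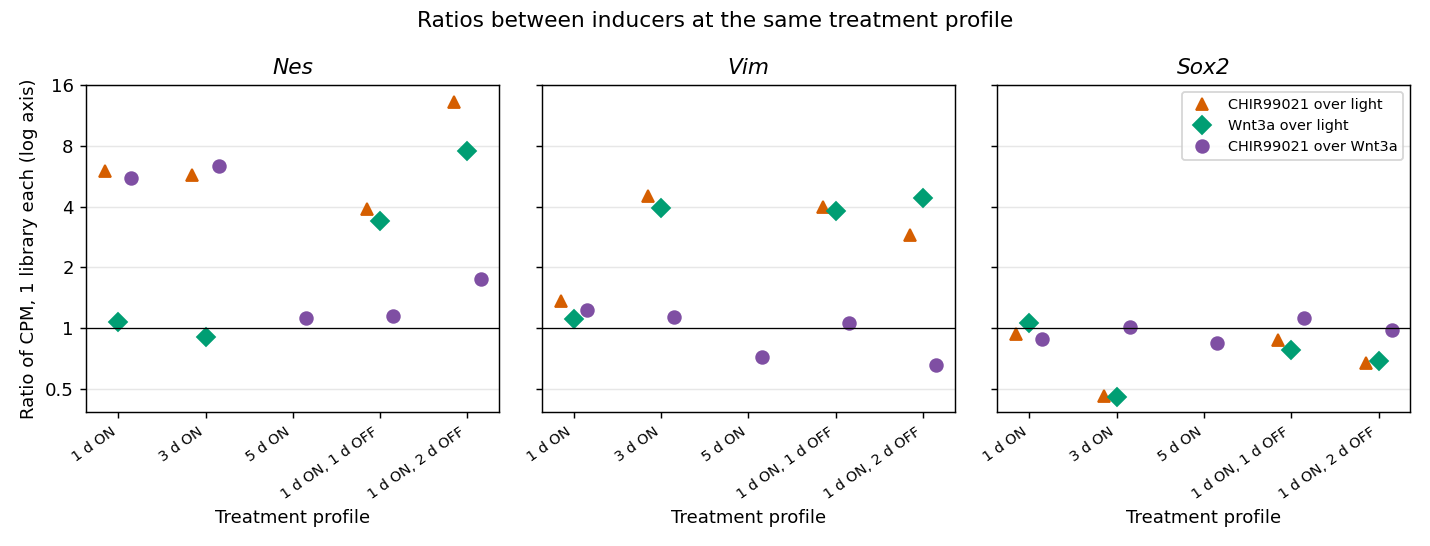
Ratio of CPM between inducers (log axis) at each treatment profile (horizontal axis) for Nes, Vim and Sox2. Each point is 1 library over another. CHIR99021 over light lies between 3.89 and 13.2 for Nes and between 1.37 and 4.5 for Vim, and from 0.465 to 0.935 for Sox2. Light was not analysed at 5 d ON.

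The study withdrew the inducer after 1 d and used constant and no stimulus as controls. After withdrawal, Nes was highest with CHIR99021 and lowest with light. After 1 d ON and 2 d OFF, Nes stood at 323 CPM with CHIR99021, 184.5 CPM with Wnt3a and 24.4 CPM with light, against 940.4, 149 and 164 CPM after 3 d ON. Unstimulated cells of 3 d stood at 95.7 and 55.1 CPM. CHIR99021 and Wnt3a thus lay above both unstimulated libraries, and light lay below both. Each is 1 library, and the share of all genes in this order was not counted. Of these 3 libraries of 2 d OFF, light is not among the 6 that stood apart, and the others are.

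After 1 d ON and 1 d OFF, Nes stood at 149, 129.7 and 38.4 CPM with CHIR99021, Wnt3a and light, against 342, 61.7 and 57.2 CPM at 1 d ON. Cells of 1 d OFF were sampled at 2 d and those of 1 d ON at 1 d. Withdrawal and time therefore cannot be told apart between them, for any of the 3 genes. The 2 d OFF to 3 d ON difference for Nes was -1.29 on the log2 scale (SE 0.52, edgeR adjusted p = 0.53), and the 1 d OFF to 1 d ON difference was -0.3 (SE 0.52, edgeR adjusted p = 1). The first of these was -2.2 without the 6 libraries that stood apart, -1.83 without Wnt3a 3 d ON and -0.82 without light after 2 d OFF, and it was called in none of them. In both comparisons edgeR called 0% of genes, with 1095 and 238 at an unadjusted p under 0.05, and DESeq2 called 43 and 3.

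Against unstimulated 3 d cells, 2 d OFF gave 1.32 for Nes (95% interval -0.03 to 2.67), 0.94 for Vim (-0.09 to 1.98) and 0.09 for Sox2 (-0.66 to 0.84), with edgeR adjusted p of 0.64, 0.64 and 0.94. Here 0% of genes were called by edgeR (898 had an unadjusted p under 0.05, and DESeq2 called 0). The Nes value was -0.05 without the 6 libraries that stood apart, where light is the only inducer left at 2 d OFF.

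Vim after withdrawal stood at 1164 and 1101 CPM (CHIR99021 and Wnt3a, 1 d OFF) and at 1059.6 and 1604 CPM (2 d OFF). With light it stood at 291 CPM after 1 d OFF and 364 CPM after 2 d OFF. With CHIR99021 and Wnt3a, 1 d OFF was above 1 d ON (514 and 416 CPM) and 2 d OFF was below 3 d ON (2142 and 1880 CPM). With light all 4 values lay between 291 and 476 CPM. The fitted log2 differences were 0.65 (SE 0.39, edgeR adjusted p = 1) for 1 d OFF against 1 d ON and -0.49 (SE 0.38, edgeR adjusted p = 0.72) for 2 d OFF against 3 d ON. The latter was -1.29 without the 6 libraries that stood apart, where it was not called, and -0.25 without CHIR99021 3 d ON.

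Sox2 was higher after 1 d OFF than at 1 d ON, and after 2 d OFF than at 3 d ON, with each inducer. With Wnt3a, the counting intervals of 1 d OFF and 1 d ON overlap. It was not counted how many of all genes share this order. With CHIR99021, Wnt3a and light, it stood at 870.3, 771 and 989 CPM after 1 d OFF, against 644, 731 and 689 CPM at 1 d ON. After 2 d OFF the levels were 691, 703 and 1024 CPM, against 405, 396 and 871.5 CPM at 3 d ON. The log2 differences were 0.34 (SE 0.29, edgeR adjusted p = 1) and 0.64 (SE 0.29, edgeR adjusted p = 0.55), and neither was called. The second was 1.31 without the 6 libraries that stood apart (edgeR adjusted p = 0.25).

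Taking the 8 profiles by mean level, Nes was highest at 5 d ON (1032 ± 86.2 CPM, SD, n = 2), and both its libraries lay above every library of 3 d ON, the next profile (418 ± 453 CPM, SD, n = 3). Below that, each profile overlapped its neighbour in the order, down to unstimulated 3 d (75.4 ± 28.7 CPM, SD, n = 2). For Vim, no neighbours in the order were separate, from unstimulated 5 d (2014 ± 1328 CPM, SD, n = 2) to 1 d ON (435 ± 71 CPM, SD, n = 3). For Sox2 the only separate neighbours were 1 d ON (688 ± 43.2 CPM, SD, n = 3) and 5 d ON (559 ± 68 CPM, SD, n = 2). The share of all genes that separate in these ways was not counted. The profiles also differ in inducers, as 5 d ON lacks light.

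Libraries with more Nes also had more Vim, and tended to have less Sox2. Over the 20 libraries, log2 CPM of Nes and Vim had a Pearson r of 0.74 and a Spearman rho of 0.75, and r was 0.74 without the 2 libraries farthest from the median of Nes. For Nes and Sox2, r was -0.46 and rho -0.48, with r of -0.44 without the same 2 libraries and -0.65 in the 14 libraries that did not stand apart. For Vim and Sox2, r was -0.3 and rho -0.24, with r of -0.61 in those 14 libraries. These values are descriptions: both genes of a pair share each library and its depth, and no p is attached.

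Ratios of reads within a library do not depend on its total. Nes per Vim read was 0.665, 0.439 and 0.778 with CHIR99021 at 1, 3 and 5 d ON and 0.499 with Wnt3a at 5 d ON, and between 0.067 and 0.344 in the other 16 libraries. Nes per Sox2 read was 2.32 and 2.14 with CHIR99021 at 3 and 5 d ON and 1.6 with Wnt3a at 5 d ON, 0.921 in wild-type cells at 0 d, and 0.0238 at its lowest, with light after 2 d OFF.

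**Figure D4:**
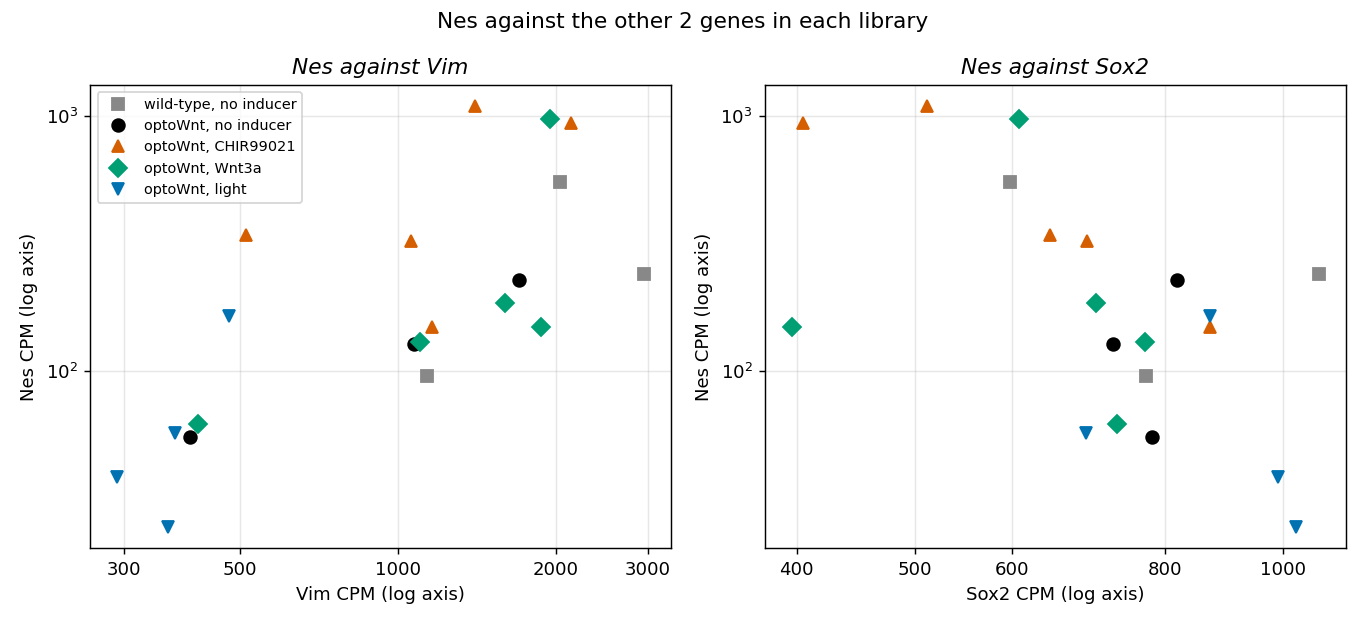
Nes CPM (vertical, log axis) against Vim CPM (left) and Sox2 CPM (right, log axes), 1 point per library, coloured and shaped by genotype and inducer. Nes and Vim rank alike (Pearson r 0.74, 20 libraries), and the libraries with the most Nes reads lie towards low Sox2 (r -0.46).

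The genes most like each of the 3 were sought among 9580 others with a mean of at least 5 CPM, by Pearson r of log2 CPM over the 20 libraries. For Nes they were ENSRNOG00000010161 and ENSRNOG00000016103 (r of 0.92 each), the latter running from 22.1 to 187 CPM. For Vim they were ENSRNOG00000014066 and ENSRNOG00000004496 (r of 0.87 each). For Sox2 they were ENSRNOG00000017781 (r 0.87, 149 to 1400 CPM) and ENSRNOG00000019383 (r 0.84). By Spearman's rho, the closest gene was the same for Vim and Sox2, and for Nes it was ENSRNOG00000016103 (rho 0.95). Without the 6 libraries that stood apart, another gene was closest to each, so the likeness rests in part on those libraries.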

How the data were processed

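Reads of 3' ends (QuantSeq, low-input protocol, per the labels' protocols) were deposited by the authors as whole-number counts per gene and well, with no normalization. Bowtie2, Subread, featureCounts and the build Rnor_6.0 are named in the submitters' processing notes. No source used here gives versions, the strand setting or how multiply mapped reads were treated. Wells were tied to libraries through the labels. No other per-sample column was present (0).

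Tests were run in R 4.3.3 with the quasi-likelihood functions of edgeR 4.0.16 on all genes' counts. Scaling was by TMM, and filterByExpr was run by profile (12190 genes, including all 3 described). One additive fit of 20 libraries had terms for profile, genotype and inducer (11 coefficients, 9 residual degrees of freedom). Inducers were coded to sum to 0. Each inducer's constant effect came from the 9 libraries of 3 and 5 d (11566 genes, with 3 residual degrees of freedom left). That fit had terms for day, genotype and inducer. Benjamini-Hochberg adjustment ran over all genes of a fit. SE is the fold change over the square root of F. Levels are CPM of plain totals (TMM-scaled values are 0.913 to 1.15 times these). Log2 CPM for correlations used a prior count of 2. The fit of 20 libraries was run on simulated data for CHIR99021 against light and for constant stimulus against none. The same set spread was used there for every gene, and the fit of 9 libraries was not run in this way. Alternatives were DESeq2 1.42.0, other scalings, no filter, no inducer term and libraries left out.

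The 3 genes, the comparisons and the lists were chosen with earlier results of these data known. The named genes were the 3 described and the 2 most like each. A list of other stem cell genes and lists of cell type markers, written as symbols, were not run because 0 IDs were matched to symbols.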

Additional observations from a re-analysis of the deposited data

Results flagged for a closer look

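The Nes change on withdrawal had opposite signs between inducers. With Wnt3a it was 1.07 on the log2 scale from 1 d ON to 1 d OFF and 0.31 from 3 d ON to 2 d OFF. With CHIR99021 the same differences were -1.2 and -1.54, and with light -0.57 and -2.74. Each difference from 3 d ON to 2 d OFF pairs a library that stood apart on the first principal component with one that did not. Each value is 1 library against another, and the 1 d OFF cells were sampled at 2 d, later than those of 1 d ON. The difference itself, tested after these values were seen as an inducer by withdrawal interaction in the 12 stimulated libraries of 1 to 3 d, had an unadjusted p of 0.0059 but an edgeR adjusted p of 0.91 over 11564 genes, of which 0 were called by edgeR's test. The Wnt3a library of 1 d ON is the shallowest (43 Nes reads), and its part in the result was not tested. Profiles have 2 or 3 libraries, too few for a check of single libraries that stand out.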

How the results depend on the processing

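Of the 3 calls, Nes for CHIR99021 against light held in all 6 other settings (log2 fold change 2.5 to 2.62) and in 16 of 20 fits without 1 library (2.2 to 2.77), Vim for CHIR99021 against light in 4 of 6 settings and 7 of 20 fits (1.26 to 1.87), and Nes under constant CHIR99021 in 5 of 6 and 7 of 9 (2.81 to 4.37). Without the wild-type libraries the last 2 were not called (Vim 1.45, Nes 3.69), and without the 6 libraries that stood apart Vim was not (1.18). DESeq2 called 7 differences that edgeR did not: 3 d against 0 d unstimulated for Nes (-2.44) and Vim (-1.65), constant stimulus for Nes (2.66), 1 d ON against 0 d for Vim (-1.62), 3 d against 1 d ON for Vim (1.45), light against Wnt3a for Vim (-1.53) and constant Wnt3a for Nes (2.38). With no low-count filter, 4 of these were called by edgeR: Nes at 3 d against 0 d (-2.34), Nes under constant stimulus (2.59), Vim for light against Wnt3a (-1.57) and Nes under constant Wnt3a (2.29). Without the 6 libraries, Vim was called at 1 d ON against 0 d (-2.01) and at 3 d against 1 d ON (1.79). The cause of these shifts was not tested.

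Signs turned in some settings. Without the 6, Nes at 2 d OFF against unstimulated 3 d turned from 1.32 to -0.05. The other values that turned lay within 1 SE of 0. Sox2 at 3 d against 0 d was -0.01 with DESeq2's size factors, -0.02 without the wild-type libraries and -0.04 without the 6, and at 5 d against 0 d -0.17 and -0.22 in the last 2 of these settings. Sox2 at 2 d OFF against unstimulated 3 d was -0.02 without the wild-type libraries. Without the 6, Sox2 for optoWnt against wild-type was 0.13, and CHIR99021 against Wnt3a 0.25 for Vim and 0.07 for Sox2.

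Over the fits without 1 library, 3 d against 0 d ran from -2.65 to -2.06 for Nes, from -2.06 to -1.01 for Vim and from -0.18 to 0.36 for Sox2, and 5 d against 0 d from -0.64 to 0.39 for Vim and from -0.19 to 0.63 for Sox2. Nes at 3 d against 0 d was called without CHIR99021 5 d ON, Wnt3a 3 d ON, Wnt3a 5 d ON or light after 2 d OFF (edgeR adjusted p of 0.047, 0.036, 0.047 and 0.035), and Vim without light 1 d ON (0.049). Constant stimulus ran from 2.23 to 2.88 for Nes, and 1 d ON against 0 d from -2.25 to -0.9 for Vim and from -0.3 to 0.25 for Sox2. For Sox2, 2 d OFF against unstimulated 3 d ran from -0.08 to 0.21, optoWnt against wild-type from -0.28 to 0.2 and CHIR99021 against Wnt3a from -0.15 to 0.08. For Vim, CHIR99021 against Wnt3a ran from -0.28 to 0.06 and constant light from -0.84 to 0.17.

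Counts of called genes moved far more. Against 252 at 3 d and 551 at 5 d over 0 d, other settings gave 2 to 626 and 9 to 1251. They gave 0 to 274 for constant stimulus (24), 19 to 284 for 1 d ON (70), 0 to 271 for 3 d against 1 d ON (3), 51 to 736 for CHIR99021 against light (170), 2 to 145 for CHIR99021 against Wnt3a (4), 0 to 171 for light against Wnt3a (1), 99 to 1512 for constant CHIR99021 (201) and 0 to 88 for constant Wnt3a (1). Fits without 1 library gave, in the same order, 17 to 357, 32 to 730, 0 to 98, 4 to 95, 0 to 26, 6 to 167, 1 to 10, 0 to 2, 0 to 445 and 0 to 3. The lowest counts came without wild-type 0 d for 3 d and 5 d against 0 d, without optoWnt 0 d for 1 d ON, and without CHIR99021 3 d ON for CHIR99021 against light and constant CHIR99021.

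No paired analysis was possible because the labels give libraries no replicate numbers to use as a block. Genotype and inducer, by which libraries match across profiles, are already terms of the fit. A library left alone in an arm by a leave-out was taken to vary as the other groups do. The setting without an inducer term could not be applied to comparisons of inducers, and leaving out the 6 libraries gives no value for constant light. In the shallowest library a count of 0 would allow up to 4.31 CPM, well below all values given here.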
